A study of Pinctada imbricata with 5 samples.

Results

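The HSP70 family of the pearl sac was followed through 5 unigenes, that is assembled transcripts, of the 19415 listed in at least 1 library. Their best protein match in the nr database names HSP70 or a 70 kDa heat shock protein. That name does not set them apart, since 5 further unigenes with such a name, none above 3 tags on any day, were not among the 5 and are described separately. Grafted mantle epithelium grows around an implanted nucleus to form this sac, which then deposits the pearl. Tissue was sampled 10, 15, 20, 30 and 60 days after the implantation surgery, with 1 library per day, from pearl oysters labelled 1.5 years of age. The sample labels name the species Pinctada imbricata and the series title Pinctada martensii. The labels name no further treatment or genotype, and they do not say how many animals were pooled or whether unoperated mantle was taken. Expression was measured as 21-base tags that begin at a CATG site of the transcript and are counted per unigene.

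HSP70 proteins are ATP-driven chaperones that hold unfolded stretches of other proteins and let them go to fold. J-domain proteins (the HSP40 family) bring them their clients and start ATP hydrolysis, and exchange factors such as BAG proteins, GrpE and the HSP110 branch of the family reload them with ATP. Some members are made in all cells, while others are induced by heat, low oxygen, wounding or other stress, and in bivalves HSP70 messages are widely used as a sign of stress.

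Each of the 5 unigenes was represented by a single tag sequence, at the 3′-most CATG site of the unigene, in every library that listed it. Of all unigenes, 51.7% had a single tag sequence at that site. The tags are shown because those of the 3 closest members are nearly the same, and the count of each member is the count of its tag. Capitals in the first 3 lines mark the 5 positions at which those 3 tags differ.
Unigene65737: catggcTacTtgAttCttTgc
Unigene11712: catggcCacTtgAttCttGgc
Unigene50476: catggcCacCtgGttTttGgc
The other 2 tags follow, with the CATG site in capitals.
Unigene69586: CATGgaaactgatcaagatgc
Unigene20283: CATGttgaaatcggacaagtt

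Unigene65737 and Unigene11712 differed at 2 of 21 bases, Unigene11712 and Unigene50476 at 3, and Unigene65737 and Unigene50476 at 5. The remaining pairs differed at 10 to 14 bases. Among the 32257 distinct tags of the 5 libraries, none lay 1 base away from any of the 5. The nearest other tag to Unigene65737 was that of Unigene11712, and the nearest to Unigene50476 was also that of Unigene11712. The number of mismatches allowed when tags were assigned is not given in the sources used here, so the split of tags between these 3 members is uncertain to that extent.

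The 3 close tags were read in all 6 frames. On the strand complementary to the listed tag, in the frame that ends on the CATG, all 5 differing positions fell on the third base of a codon and none of the 7 codons changed its residue. In each of the other 5 frames between 2 and 5 codons changed the residue. The frame on the listed strand that also had all 5 positions on the third base of codons changed 2 residues and held a stop codon in 2 of the 3 tags. Only these 3 of the 32257 tags spelled that same run of residues on the complementary strand. As background knowledge, not taken from the files, the run belongs to the nucleotide-binding domain that is conserved among HSP70 proteins. The tags as listed therefore carry the complement of that reading frame. The files do not give the strand of the protein match, and whether the tagged RNA was the coding strand or its complement was not tested.

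The library totals behind the values, recovered from the deposited columns, were 4700927 to 4784093 tags, of which 12.8% to 28.0% were listed for unigenes. On day 20, 60.1% of the listed tags belonged to 1 unigene (Unigene51171), against 20.1% to 43.2% on the other days, and the fewest unigenes were listed (8824, against 9243 to 11675). No tag with fewer than 2 copies was listed, so a member not listed on a day may have had a tag seen once. Scaled TPM below is the deposited TPM divided by the TMM factor of its library, a correction for the make-up of each library. Tag counts need no correction for transcript length, since a transcript gives tags at its CATG sites and not along its length. Of 28 shell-forming epithelium markers, such as nacre proteins, PIF and tyrosinases, 9 to 24 were listed per day, with summed levels of 83.0 to 889 scaled TPM. Of 10 muscle markers 2 to 5 were listed, with sums of 0.892 to 6.30 scaled TPM and the highest sum on day 20, and of 3 germline markers at most 1. The single hemocyte marker above 4 tags, allograft inflammatory factor 1, fell between 144 and 843 tags. Fewer cells of a type and less RNA per cell cannot be told apart in such libraries.

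The family was scarce on every day except day 20. The 5 unigenes together had 9, 18, 230, 6 and 28 tags in order of day, or 2.01, 3.25, 53.7, 1.44 and 5.15 scaled TPM. The number of members listed was 2, 3, 4, 1 and 4. On day 20 Unigene65737 and Unigene11712 held 84.8% of the family's tags, while on days 10 and 30 they held none and the tags were those of Unigene50476 and, on day 10, Unigene20283.

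**Figure D1:**
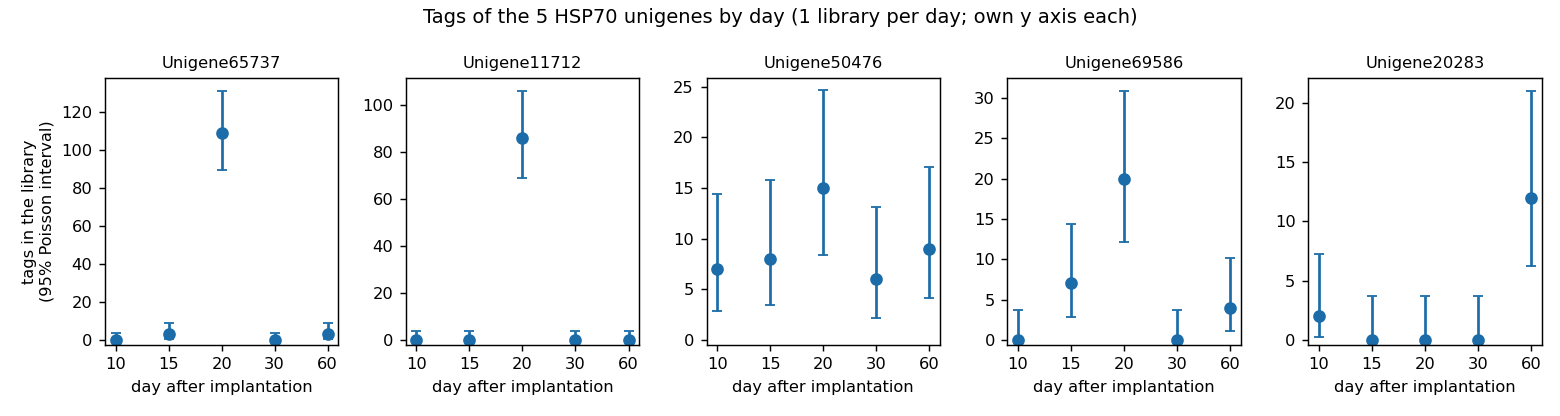
Tags of each HSP70 unigene (y axis, counts, own scale per panel) on days 10, 15, 20, 30 and 60 (x axis, evenly spaced), 1 library per day; points are counts and bars 95% Poisson intervals. Unigene65737 and Unigene11712 stand at 109 and 86 tags on day 20 and at 0 to 3 elsewhere, Unigene50476 lies between 6 and 15 throughout, and Unigene20283 is highest on day 60 with 12.

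Unigene65737 matched a heat shock protein 70kDa of the crab Paromola bathyalis (e-value 3.80e-37). Its annotation lists protein binding, ATP binding, response to stress, spermatogenesis, cell differentiation and multicellular organismal development, with the cell surface, the nucleus and the mitochondrion as locations. It had 0, 3, 109, 0 and 3 tags in order of day, and the 109 tags of day 20 had a 95% Poisson interval of 89.5 to 131. Day 20 stood alone, and the other 4 days did not rise above 3 tags. On day 20 it was the 549th most abundant of 8824 listed unigenes, within the top 6.22%, whereas on days 15 and 60 its rank lay beyond the first 60% of the list.

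Unigene11712 matched an HSP70 of the snake Oxyuranus scutellatus (2.51e-36). It was listed on day 20 alone, with 86 tags (68.8 to 106), and was at rank 664. Of the 951 unigenes listed only on day 20, 6 reached 10 scaled TPM, and 2 of those 6 had a protein match, Unigene11712 itself and a mantle gene 4 match (Unigene29181, 75 tags). Within the day 20 library the ratio of Unigene65737 to Unigene11712 was 1.27 (95% interval 0.947 to 1.70), so their order there was not resolved by the counts.

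Unigene50476 had the closest match by species, the heat shock protein 70 of the pearl oyster Pinctada fucata (2.87e-32), and was the only member listed on every day. It had 7, 8, 15, 6 and 9 tags in order of day, or 1.56, 1.44, 3.50, 1.44 and 1.66 scaled TPM. The day 20 value was the highest, but each pairwise interval included a ratio of 1. Day 20 over day 15 was 2.43 (0.965 to 6.61) and day 20 over day 10 was 2.24 (0.860 to 6.50). On day 20 it had 7.27-fold fewer tags than Unigene65737 (4.22 to 13.4) and 5.73-fold fewer than Unigene11712 (3.29 to 10.7), the member with the nearest tag.

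Unigene69586 matched a heat shock 70 kDa protein 4-like sequence of the giant panda (9.59e-12). In mammals that protein belongs to the HSP110 branch, which acts as an exchange factor for HSP70. It had 0, 7, 20, 0 and 4 tags in order of day, with the most on day 20 (4.67 scaled TPM) and no listing on days 10 and 30. Day 20 over day 15 was 3.70 (1.50 to 10.3), and day 60 was 6.34-fold lower than day 20 (2.12 to 25.5). On day 20 Unigene69586 (20 tags) and Unigene50476 (15 tags) were not resolved from each other, with a ratio of Unigene50476 to Unigene69586 of 0.750 (0.357 to 1.54), and Unigene11712 lay 4.30-fold above Unigene69586 (2.62 to 7.39).

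Unigene20283 matched a heat shock 70 kDa protein 12B-like sequence of the frog Xenopus tropicalis (5.58e-12). The HSPA12 proteins are distant relatives of HSP70, and this branch is expanded in the genome of the oyster Crassostrea gigas. It had 2 tags on day 10, 12 on day 60 and none listed on days 15, 20 and 30, so its highest day was not that of the other 4 members. Day 60 was at least 3.07-fold higher than day 30 against a floor of 3 tags, and day 60 over day 10 was 4.95 with a wide interval (1.10 to 45.6).

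Consecutive days were then compared with a rule of size, since 1 library per day allows no test and no p-value. Calling a unigene higher or lower took at least 10 scaled TPM on the day with more (41.7 to 55.4 tags, depending on the library) and a ratio whose 95% interval lay entirely outside 2-fold. Intervals cover counting error only and not the spread between oysters. For a member unlisted on the day with less, a floor of 3 tags took the place of its count. The fold is a lower bound by that convention only, since the 95% interval from the counts began below it. The members that reached the minimum did so through day 20 alone, so that a call in a comparison with day 20 followed from their scarcity on the other days, and their number supports nothing further.

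On day 15 against day 10, 0 of the 5 members were called, because none reached the minimum level. By the same rule 20.3% of 1669 unigenes compared were higher and 24.0% lower on day 15. Among called unigenes 45.9% were higher, and 59.5% with plain TPM, a scaling that shifts every log2 ratio of this comparison by 0.29 and those of the comparisons below by -0.37 to 0.37. The summed family ratio was 1.62 (0.690 to 4.09).

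On day 20 against day 15, Unigene65737 was 47.0-fold higher (15.7 to 231) and Unigene11712 at least 37.1-fold higher (interval from 29.5). The other 3 members did not reach the minimum. Thus 2 of 5 members were higher and 0 lower, and these 2 were the only members that reached the minimum. Of the 1636 unigenes that reached it, 25.6% were higher and 26.8% lower. Among called unigenes 48.9% were higher, and 34.8% with plain TPM, which gave 36.3-fold for Unigene65737. The summed family was 16.5-fold higher (10.2 to 28.4), 10.4-fold without Unigene65737 (6.08 to 19.2) and 3.02-fold without both abundant members (1.61 to 5.95), which no longer met the rule. Against day 10, day 20 was at least 38.0-fold higher for Unigene65737 (interval from 30.4) and at least 30.0-fold for Unigene11712 (from 23.9). Of 1581 unigenes 15.8% were higher and 21.3% lower in that comparison.

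**Figure D2:**
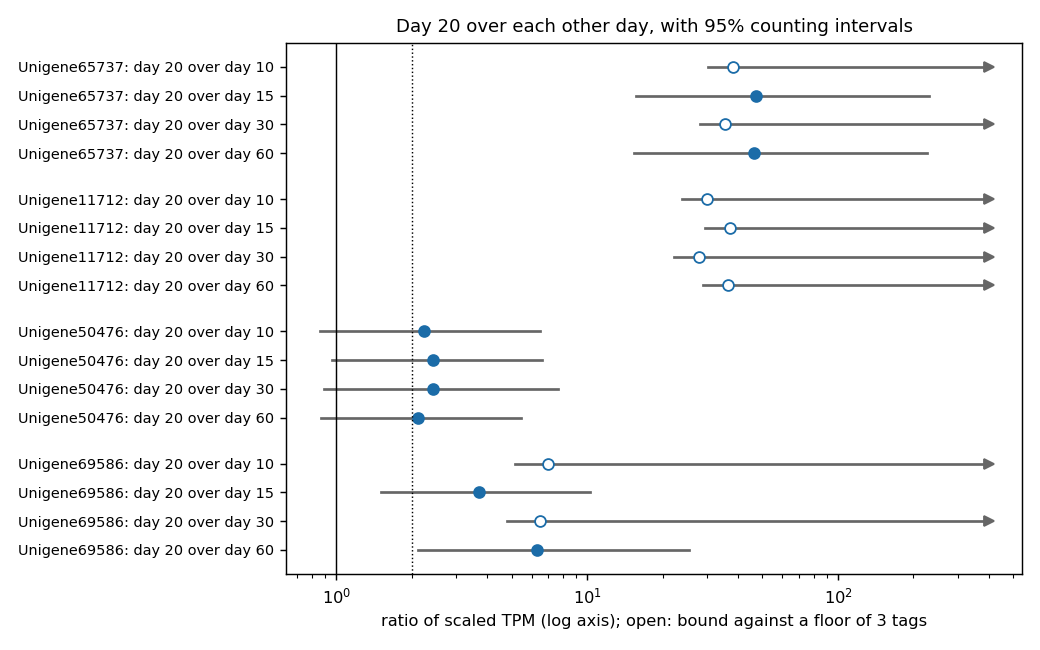
Ratio of scaled TPM on day 20 to each other day (x axis, log scale) for the 4 HSP70 unigenes listed on day 20; bars are 95% counting intervals, arrows mark intervals with no upper end, and open points are bounds against 3 tags on the unlisted day. The dotted line is 2-fold. The points of Unigene65737 and Unigene11712 lie beyond 20-fold throughout, Unigene50476 spans 1 in all 4 comparisons and Unigene69586 lies between.

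**Figure D3:**
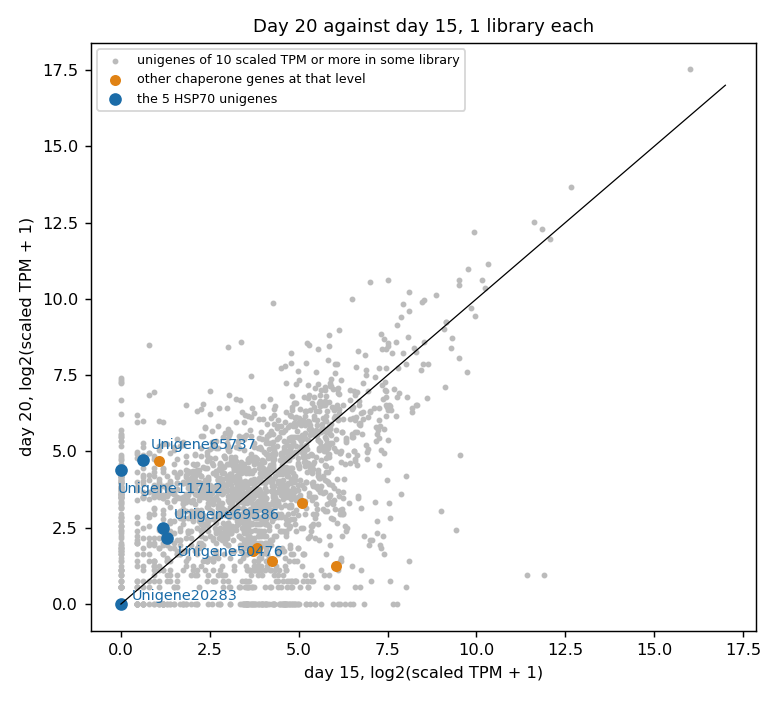
Day 20 (y axis) against day 15 (x axis), both as log2(scaled TPM + 1), for the 2202 unigenes that reached 10 scaled TPM in some library (grey), the other chaperone genes among them (orange) and the 5 HSP70 unigenes (blue); the line marks equal levels. Unigene65737 and Unigene11712 lie far above the line beside alpha-crystallin B, and the other 5 chaperone genes lie below it.

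On day 30 against day 20 the same pair was lower. Unigene65737 had 0 tags on day 30 against 109 on day 20, at least 35.3-fold lower (interval from 28.2). Unigene11712 had 0 against 86, at least 27.9-fold lower (from 22.2). That is 2 of 5 members, and again the only 2 that reached the minimum. Of the 1534 unigenes that reached it, 18.9% were lower and 19.8% higher. The summed family was 37.3-fold lower (16.9 to 103), and 5.67-fold lower without these 2 members (2.36 to 16.5). The latter interval lay beyond 2-fold. The rule was still not met, because the 35 tags left on day 20 were below the minimum level (42.9 tags in that library). Unigene69586, under the minimum level, was unlisted on day 30 and at least 6.48-fold below its 20 tags of day 20.

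On day 60 against day 30, 0 of 5 members reached the minimum level, while 15.7% of 1525 unigenes were higher and 15.2% lower (50.7% higher among called, and 69.6% with plain TPM). The summed family was 28 tags on day 60 against 6 on day 30, a ratio of 3.58 (1.45 to 10.6), with 4 members listed against 1. Unigene20283 gave 12 of the 28. Day 60 stayed far from day 20. Unigene65737 was 46.0-fold lower on day 60 (15.3 to 227) and Unigene11712 at least 36.3-fold lower (interval from 28.9). In that comparison 383 of 1585 unigenes were lower (24.2%) and 364 higher. The share of higher among called was 48.7%, or 63.5% with plain TPM. Between day 60 and day 10 the family ratio was 2.57 (1.18 to 6.19) and no member reached the minimum (14.5% of 1602 unigenes were higher and 19.0% lower, so that 43.3% of called unigenes were higher, and 56.0% with plain TPM).

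A unigene peaked on a day when it was higher by the rule than on each of the other 4 days. Unigene65737 and Unigene11712 peaked on day 20, as did 132 of the 2202 unigenes that reached the minimum in some library (5.99%). Counting all members whatever their level, 4 of 5 had their highest scaled TPM on day 20, which held for 17.6% of all 19415 unigenes and for 14.4% of the 5341 with a protein match. This count depends on which unigenes are taken as the family. With the 5 further unigenes named HSP70 or 70 kDa heat shock protein it was 5 of 10, while day 10 and day 60 were highest for 2 each and day 15 for 1.

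The unigenes whose pattern over the 5 libraries was most like that of the abundant members were named by Pearson's r of log2(scaled TPM + 1) among 293 other unigenes with a named match. It is a description over 5 days with no test, and a pattern with 1 high day gives values near 1 easily. For Unigene65737 they were Unigene11712 (r 0.9875), the mantle gene 4 match Unigene29181 (0.9875), a MICAL-like protein 2 match (Unigene21379, 0.9773), a match to the fly gene CG34145 (Unigene20315, 0.9561) and collagen IV alpha 1 (Unigene90525, 0.9556), a collagen of basement membranes. For Unigene11712 they were Unigene29181 (1.0000), Unigene65737 (0.9875), Unigene21379 (0.9795), Unigene90525 (0.9777) and Unigene20315 (0.9716). The collagen had 36, 64, 753, 45 and 28 tags in order of day, and the MICAL-like match 20, 21, 74, 16 and 29.

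Other names of the HSP70 superfamily were rare. In 7 further unigenes matching HSPA12 proteins, heat shock 70kDa protein 14, HSP110 and the 78kDa glucose regulated protein, the chaperone of the endoplasmic reticulum known as BiP, the summed tags were 7, 21, 7, 0 and 8 in order of day. The most abundant was the HSP110 match (Unigene56763), with 2, 13, 3, 0 and 3 tags, and the BiP match (Unigene90897) had 0, 6, 2, 0 and 0. Day 15 was the highest day for 3 of these 7 (42.9%), beside 42.1% of all unigenes with a protein match. Day 20 was so for 1 (14.3%, beside 14.4%), day 10 for 2 and day 60 for 1. These shares therefore do not set the 7 apart. None reached the minimum level on any day. The 5 whose match names HSP70 or a 70 kDa heat shock protein (Unigene13205, Unigene20470, Unigene6308, Unigene86887 and Unigene91303) had 5, 2, 2, 0 and 5 tags together. Unigene13205 has the same match name as the member Unigene20283. With these 5 added, the family sum was 15.0-fold higher on day 20 than on day 15 (9.49 to 25.0).

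Of the 16 unigenes that match J-domain proteins and other partners of HSP70, 11 were highest on day 15 and 2 on day 20. A wider set of 52 added to these the further HSP70 relatives, HSP90 and its partners, chaperonins and prefoldins, small heat shock proteins, folding enzymes of the endoplasmic reticulum and 2 heat shock regulators. Of the 52, 28 had their highest level on day 15 (53.8%) and 12 on day 20 (23.1%). Among all 5341 unigenes with a protein match the shares were 42.1% and 14.4%. By group, 3 of 5 folding enzymes of the endoplasmic reticulum were highest on day 20 and 1 on day 15. HSP90 and its partners had 2 on each of these days. These day 20 counts rested on tied or few tags, so they do not show that the groups differed. Unigene82988 had 15 tags on both day 10 and day 20. Unigene85813 had 2 on days 10, 15 and 20, and Unigene7861 had 2 on day 20 alone. Unigene88650, an HSP90 match, had 6 on days 15 and 20, and Unigene47487 had 2 and 4. Both groups had more summed tags on day 15 than on day 20. The counts of unigenes highest on day 15 rested in part on few tags as well. Among the 16 partners, Unigene75922, Unigene81042 and Unigene87928 had 2 tags on day 15 and none on the other days. So did Unigene68377, Unigene90807 and Unigene91303 among the rest of the 52. Summed over the 52, tags numbered 183, 1060, 271, 103 and 342 in order of day, or 146, 683, 261, 88 and 322 without the 2 heat shock regulators. The sums were therefore lower on day 20 than on day 15, 3.02-fold with the regulators (2.64 to 3.47) and 2.02-fold without them (1.75 to 2.34), in the comparison in which the HSP70 sum was 16.5-fold higher.

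J-domain proteins, the partners that hand clients to HSP70, had 0, 126, 20, 8 and 40 tags in order of day over 11 unigenes. The sum on day 20 was 4.87-fold lower than on day 15 (3.02 to 8.24). Highest on day 15 were 8 of the 11, and none on day 20. The other 3 were highest on day 60. These were Unigene20019, Unigene46950 and Unigene92394, with 7, 8 and 7 tags on day 60 and none on day 15. The following were picked as examples after their values were seen. A DNAJ domain protein (Unigene90254) had 0, 40, 6, 0 and 0 tags, a DnaJ subfamily C member 9 match (Unigene80643) 0, 31, 0, 0 and 5, and heat shock protein 40A (Unigene91998), whose match was a clam protein, 0, 26, 2, 0 and 5. None of the 11 reached the minimum level of 10 scaled TPM on any day. Partners of other kinds, 5 unigenes matching BAG-4, stress-induced phosphoprotein 1, its U-box relative and an HSP70 binding protein, had 6, 23, 10, 3 and 2 tags.

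Of the 52, 6 reached the minimum level on some day, and 4 of these 6 did so on day 15 alone. Their calls in a comparison with day 15 therefore followed from the minimum, as for the HSP70 members with day 20, and the counts and medians below are given with no reading. On day 15 against day 10, 4 were higher and 0 lower (20.3% and 24.0% of all unigenes compared), with a median log2 ratio of 2.36 over the 6, beside -0.14 over all 2202 unigenes. On day 20 against day 15, 1 was higher and 5 lower (25.6% and 26.8% of all), with a median of -1.98 beside 0.00. On day 30 against day 20, 0 were higher and 1 lower (19.8% and 18.9%), and on day 60 against day 30, 1 was higher and 0 lower (15.7% and 15.2%), with medians of -0.60 and 0.95 beside 0.00.

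HSP90 (Unigene83137), which receives clients from HSP70, had 7, 67, 10, 4 and 16 tags in order of day and peaked on day 15. The mitochondrial HSP60 match (Unigene89867), the barrel-shaped chaperonin, had 5, 73, 11, 4 and 14 tags, and its lid HSP10 (Unigene20937) 60, 184, 38, 31 and 80. Calreticulin (Unigene90482), a calcium-binding chaperone of the endoplasmic reticulum, had 12, 100, 7, 4 and 23 tags. All of these were lower on day 20 than on day 15 by the rule, by 5.18-fold for HSP90 (2.65 to 11.3) and 11.0-fold for calreticulin (5.17 to 28.2). So was a heat shock factor 2 binding protein match (Unigene86418), with 37, 361, 6, 15 and 13 tags, which is not itself a chaperone and whose tags were nearly all from the fifth site from the 3′ end (355 of the 361 on day 15). The HSP60 match had 53 of its 73 day 15 tags at the second site. At its 3′-most site it had 20 tags on day 15 (3.61 scaled TPM), and with those tags alone it did not reach the minimum level on any day.

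The alpha-crystallin B match (Unigene85224), of the small heat shock proteins, which hold unfolding proteins until HSP70 can refold them, was the other chaperone with a high level on day 20. It had 2, 6, 106, 6 and 69 tags in order of day. Day 20 was 22.9-fold higher than day 15 (10.2 to 63.7), day 30 was 17.2-fold lower than day 20 (7.63 to 47.8), and day 60 was 8.82-fold higher than day 30 (3.85 to 24.9). Unlike Unigene65737 and Unigene11712, with 3 and 0 tags on day 60, it was high again on day 60, and so it had no peak day by the rule. Its tags lay at 3 CATG sites. At the 3′-most site it had 0, 3, 35, 2 and 52 tags in order of day, so that by this site day 60 was its highest day, at 9.57 scaled TPM on day 60 and 8.17 on day 20. With those tags alone it did not reach the minimum level on any day, and none of its calls was made. A second alpha-crystallin B match (Unigene89325) had 0, 0, 5, 0 and 9 tags in order of day. Of the 4 small heat shock proteins, 2 were highest on day 15, 1 on day 20 and 1 on day 60.

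**Figure D4:**
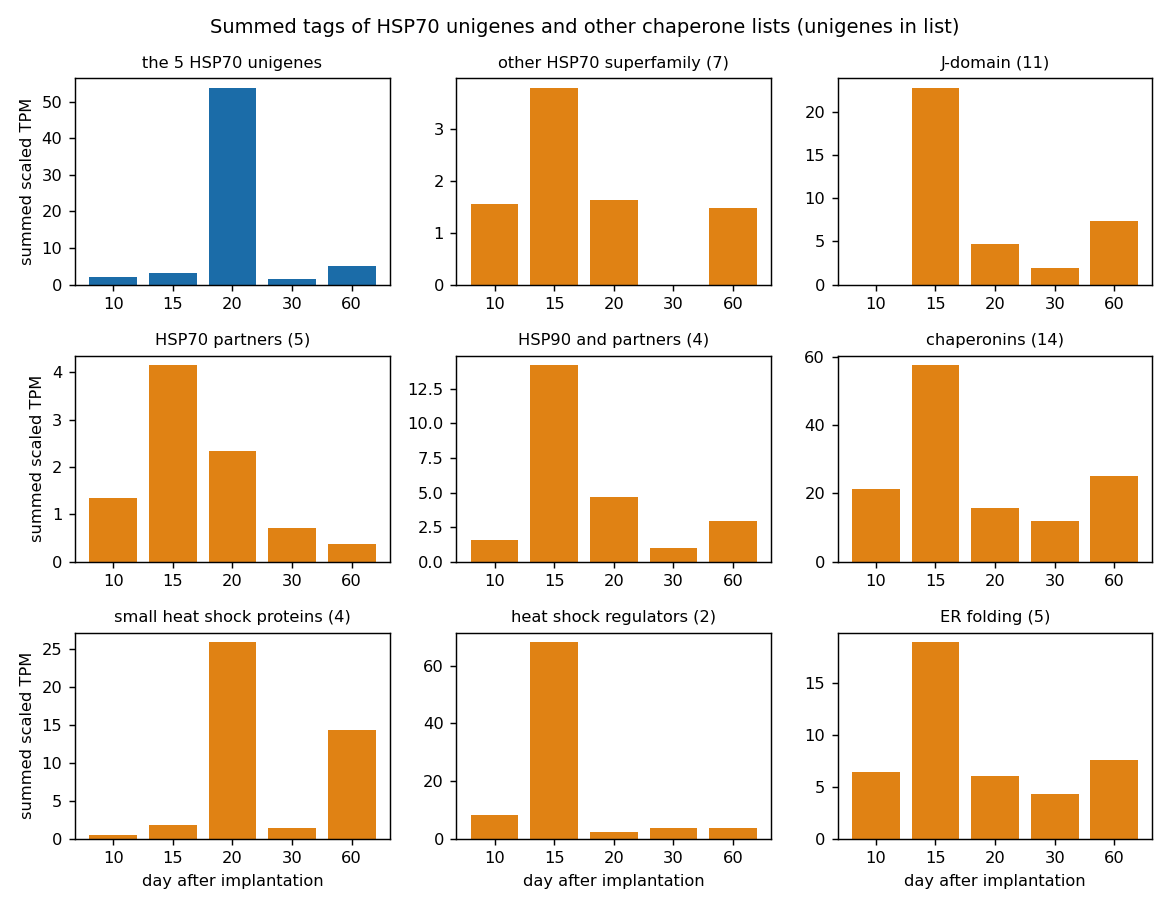
Summed scaled TPM (y axis, own scale per panel) of the 5 HSP70 unigenes (blue) and of 8 lists of other chaperone genes (orange; number of unigenes in brackets) on days 10, 15, 20, 30 and 60 (x axis, evenly spaced), 1 library per day. The HSP70 and small heat shock protein sums are highest on day 20, at 53.7 and 25.9, and the other 7 lists on day 15. Unigene85224 (106 tags) gives most of the small heat shock protein sum of day 20. Calreticulin (100 tags) gives most of the day 15 sum of endoplasmic reticulum folding enzymes. Unigene86418 (361 tags) gives most of that of the heat shock regulators. The interval of day 20 over day 15 includes 1 for the further HSP70 relatives (0.155 to 1.05) and for the partners other than J-domain proteins (0.239 to 1.23).

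Other marker lists were also summed on day 20 and day 15. Shell-forming markers summed to 225 scaled TPM on day 20 (11 of 28 listed) against 89.6 on day 15 (11 of 28). Of the 6 shell-forming unigenes with at least 50 tags on either day, 4 had more scaled TPM on day 20 and 2 had less. Mantle gene 1 (Unigene89281) had 450 tags on day 20 against 47 on day 15, a nacre protein (Unigene14842) 111 against 5, and the mantle gene 4 matches Unigene75755 and Unigene29181 139 against 39 and 75 against 0. The mantle gene 4 matches Unigene59776 and Unigene79830 had 143 on day 20 against 308 on day 15 and 5 against 63. Nacrein and the tyrosinase matches were at 0 on both days. Sperm and motile cilia markers summed to 6.07 on day 20 (4 of 26) against 142 on day 15 (23 of 26). Muscle markers summed to 6.30 (3 of 10) against 2.71 (4 of 10), with striated myosin heavy chain at 0 on both days. Nervous markers summed to 11.9 on day 20 (2 of 7) against 0.902 on day 15 (1 of 7), hemocyte markers to 35.5 (1 of 3) against 27.1 (3 of 3), digestive gland markers to 18.2 (2 of 7) against 11.9 (4 of 7), and germline markers to 0 against 0.361. On day 20 Unigene13560 gave 49 of the 51 nervous tags and Unigene92137 71 of the 78 digestive gland tags. Stress and redox genes, such as glutathione S-transferases and superoxide dismutases, summed to 39.0 on day 20 (12 of 32) against 37.9 on day 15 (21 of 32). The part of these markers in the HSP70 values was not tested. With 1 library per day, the day after implantation and the library cannot be told apart.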

How the data were processed

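Tag profiles of 5 pearl sac libraries, 1 per day, were used as deposited. The counts are whole-number sums of tag copies per unigene, per the file headers, with no normalization, and the TPM column was computed by the authors, by the values, as the count over 1 constant total per library, with no length correction. No header or label names the aligner, the mismatches allowed or the assembly. The labels' protocol cites a TruSeq RNA kit, although CATG tags come from another preparation. Library totals were recovered as count over TPM in genes of at least 5000 tags. TMM factors (edgeR 4.0.16, R 4.3.3) were 0.947, 1.16, 0.896, 0.886 and 1.15 in order of day. Intervals were 95% Clopper-Pearson, conditional on the counts compared, computed with Python 3.11.15 and scipy 1.17.1. Tags were translated with Biopython 1.88. In simulated libraries with 200 changed genes, the rule recovered 96.6% to 99.1% of 4-fold and 100.0% of 8-fold changes in the 4 consecutive comparisons and called 0 unchanged genes. The simulated counts held counting error alone, with equal rates for unchanged genes, so the absence of calls among these followed from the 2-fold rule. It gives no rate of false calls where oysters or libraries vary.

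The members, lists and rules were chosen with earlier results of these data known. Lists of other chaperones and of marker genes were patterns over the name of the protein match. A translation factor named after HSP70 was left out, and an HSP70 binding protein was counted with the partners. Genes named by a rule beyond the members were chaperones called in a consecutive comparison and the 5 most alike patterns per abundant member. Other chaperone and marker unigenes were named outside this rule, some of them picked after their values were seen. Alternatives were plain TPM, DESeq2 1.42.0 size factors, 3′-most tags only, other minimum levels, an interval beyond 1-fold, a pseudocount of 5 in place of 1, and sums without the most abundant members or with 5 further unigenes named as 70 kDa heat shock proteins. No sample-level replicate exists, so no test was run.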

Additional observations from a re-analysis of the deposited data

How the results depend on the processing

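The calls of Unigene65737 and Unigene11712 in the 4 comparisons with day 20 kept their direction and passed the rule under plain TPM and DESeq2 size factors. The other alternatives could not remove these calls and add nothing to them. All tags of both members lay at the 3′-most site, so 3′-most tags only gave the same counts. A minimum of 1 scaled TPM and an interval beyond 1-fold only loosen the rule. With a minimum of 1 scaled TPM 1 member (Unigene20283) was also higher on day 60 than on days 15, 20 and 30. Unigene69586 was higher on day 20 than on day 10 (at least 6.97-fold, interval from 5.16) and lower on days 30 and 60 than on day 20. The summed family ratio did not pass the rule without Unigene65737 and Unigene11712, an alternative chosen after seeing the data, at 3.02 (day 20 over 15), 0.176 (day 30 over 20), 4.07 (day 20 over 10) and 0.564 (day 60 over 20). With the 5 further unigenes named HSP70 or 70 kDa heat shock protein, also chosen after seeing the data, it kept its direction and passed the rule in these 4 comparisons, at 15.0, 0.0266, 17.3 and 0.112 in the same order.

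Among other chaperones, 3′-most tags alone gave 2 higher on day 15 over 10, 0 higher and 3 lower on day 20 over 15, 0 higher on day 20 over 10, 0 lower on day 30 over 20, and 0 higher on day 60 over 30 and over 10. A minimum of 1 scaled TPM gave 8 higher on day 15 over 10, 9 lower on day 20 over 15, and 1 lower on day 20 over 10 (also 1 with a minimum of 5) and on day 60 over 20. A pseudocount of 5 gave medians of 1.48 (day 15 over 10) and -1.36 (day 20 over 15). The causes of these shifts were not tested. No paired analysis was possible because each day has 1 library. At 6 to 20 tags, differences under about the width of the printed intervals were not detectable, and nothing measures the spread between oysters.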
